A study of Mus musculus with 30 samples.

Results

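The genes described here mark fibroblasts and mesenchymal progenitor cells: the platelet-derived growth factor (PDGF) receptors Pdgfra and Pdgfrb, the surface antigens Cd34, Ly6a and Thy1, the transcription factors Prrx1 and Nfib, and the less studied genes Islr and Medag. Every probe set that the platform annotation gave to 1 of these 9 symbols was taken. This found 23 probe sets for 8 of the symbols, out of 18193 genes with a probe set of their own, and Ly6a was not analysed here. Each gene is described by its brightest probe set: 1421917_at for Pdgfra, 1436970_a_at for Pdgfrb, 1416072_at for Cd34, 1423135_at for Thy1, 1425528_at for Prrx1, 1427680_a_at for Nfib, 1418450_at for Islr and 1452244_at for Medag. The genes had been chosen by measured values, because several of them were lower in cells with wild-type MyoD than in cells with the empty virus, which touched Cd34 at 6 h and 12 h and Pdgfra, Islr and Nfib at 24 h. The difference between those groups is therefore only described, with no test. No measured gene was dropped by a filter on low signal.

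The study profiled mouse embryonic fibroblasts from MyoD-/-/Myf5-/- animals, which lack both early muscle-determining factors, on 30 Affymetrix Mouse Genome 430 2.0 arrays. A retrovirus gave the cells MyoD joined to the hormone-binding domain of the estrogen receptor, and differentiation medium with beta-estradiol was then applied. ER-MyoD RRR, in which lysines 99, 102 and 104 are mutated so that acetylation is lost, was measured at 6, 12 and 24 h. ER-MyoD wt, with the unmutated protein, was measured at 0, 6, 12 and 24 h, and a retrovirus with no insert (empty retrovirus) at 6, 12 and 24 h. All 10 groups had 3 arrays, and all shared the absence of endogenous MyoD and Myf5, the medium and the hormone, with the labels naming the medium for the 0 h arrays too. Arrays at 0 h were analysed here for ER-MyoD wt alone, so levels of the other constructs at the start are not known. The viral constructs were expressed in transduced cells, and the labels do not say whether these were pools or clones, or whether replicates were separate cultures. A p-value here therefore reflects the spread among arrays within groups, pooled over all 10 groups, and that spread may be technical. It does not measure the spread of the groups compared alone.

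PDGF receptors are tyrosine kinases on the cell surface that bind PDGF dimers and drive the growth and migration of mesenchymal cells. In skeletal muscle, Pdgfra marks the interstitial fibro-adipogenic progenitors, which also carry Ly6a (Sca-1) and Cd34, whereas muscle cells that differentiate lose most mesenchymal traits. MyoD, a basic helix-loop-helix factor, binds the E-box motif CANNTG with its E-protein partners and can turn cultured fibroblasts into muscle, and Prrx1 and Nfib belong to transcription factor families that act in limb mesenchyme and connective tissue.

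Because MyoD binds E-boxes, the sequences around the start sites of 4 of the genes are shown, from RefSeq on build GRCm38.p6. Each window runs from 250 bases before to 50 bases after the start on the strand of the gene, and capitals mark each CANNTG, a motif that reads the same way on both strands. Windows of 5 of the 8 genes were used, with 2 start sites for Medag, and none for Pdgfrb, Thy1 or Nfib. Windows of these genes on a single chromosome were left out, while the shares over all windows include that chromosome.
Islr (chr9:58158505-58158804, minus strand): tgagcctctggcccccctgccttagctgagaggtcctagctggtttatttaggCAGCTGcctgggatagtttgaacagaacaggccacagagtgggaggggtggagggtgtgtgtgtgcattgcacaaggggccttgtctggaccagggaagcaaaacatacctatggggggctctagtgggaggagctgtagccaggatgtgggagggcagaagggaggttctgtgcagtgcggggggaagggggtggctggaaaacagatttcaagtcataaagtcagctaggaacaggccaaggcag
Medag, start site 1 (chr5:149411499-149411798, plus strand): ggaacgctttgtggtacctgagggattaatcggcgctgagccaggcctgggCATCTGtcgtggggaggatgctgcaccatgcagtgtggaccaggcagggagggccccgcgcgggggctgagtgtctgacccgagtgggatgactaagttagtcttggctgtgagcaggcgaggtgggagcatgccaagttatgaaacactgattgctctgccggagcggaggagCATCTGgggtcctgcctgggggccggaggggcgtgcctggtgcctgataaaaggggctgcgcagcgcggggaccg
Medag, start site 2 (chr5:149413588-149413887, plus strand): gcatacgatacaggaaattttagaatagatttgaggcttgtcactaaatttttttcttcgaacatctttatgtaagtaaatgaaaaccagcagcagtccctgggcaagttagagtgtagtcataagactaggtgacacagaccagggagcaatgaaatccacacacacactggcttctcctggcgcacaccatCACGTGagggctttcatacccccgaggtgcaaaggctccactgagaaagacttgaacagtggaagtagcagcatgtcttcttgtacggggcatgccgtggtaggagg
Pdgfra (chr5:75152001-75152300, plus strand): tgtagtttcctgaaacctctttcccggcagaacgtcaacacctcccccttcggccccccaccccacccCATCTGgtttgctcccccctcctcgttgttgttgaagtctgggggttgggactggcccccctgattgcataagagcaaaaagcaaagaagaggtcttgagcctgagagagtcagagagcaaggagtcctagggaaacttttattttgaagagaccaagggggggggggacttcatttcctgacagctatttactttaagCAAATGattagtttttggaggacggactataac
Cd34 (chr1:194938571-194938870, plus strand): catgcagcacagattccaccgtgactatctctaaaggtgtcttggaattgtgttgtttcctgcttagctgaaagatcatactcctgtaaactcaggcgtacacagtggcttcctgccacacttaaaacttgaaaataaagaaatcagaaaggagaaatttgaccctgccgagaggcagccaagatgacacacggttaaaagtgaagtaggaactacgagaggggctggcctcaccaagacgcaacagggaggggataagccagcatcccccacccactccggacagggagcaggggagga
The Islr window held a single E-box, CAGCTG, 197 bases before the start. Medag had CATCTG 199 and 25 bases before start site 1, and CACGTG 57 bases before start site 2. Pdgfra had CATCTG 182 bases before and CAAATG 18 bases after its start. The windows of Cd34 and of Prrx1 (chr1:163313601-163313900, minus strand) held no E-box. Over all 32851 windows of the table, 72.3% held at least 1 CANNTG, 16.3% held CAGCTG and 7.15% held CACGTG, so a match in these windows was common. The G and C content of the 6 windows was 57.0% for Islr, 64.3% and 46.7% for Medag, 51.0% for Pdgfra, 50% for Cd34 and 47.7% for Prrx1, beside a median of 52.7% over all windows.

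The deposited signal intensities were linear and scaled to a common trimmed mean. Replicates of a group correlated at 0.925 to 0.965, and 22 of the 30 arrays were nearest to an array of their own group. The arrays taken to stand apart differed in unlike measures. ER-MyoD RRR 6 h replicate 2 had the highest beta-actin 3'-to-5' ratio (3.61). ER-MyoD wt 24 h replicate 3 had the lowest mean correlation with all arrays (0.897), and empty retrovirus 12 h replicate 1 the highest median signal (64.14). By mean correlation ER-MyoD wt 24 h replicate 2 (0.909) was lower than the first and last of these, but it was not counted among them. The labelled cell type was checked on 9 fibroblast markers, all measured and bright at every time. Their summed signal at 24 h was 47790 to 56350 with ER-MyoD RRR, 32500 to 41520 with ER-MyoD wt and 58980 to 73710 with the empty retrovirus, without overlap, and at 6 h it was 37750 to 42000, 36240 to 42430 and 38510 to 40380 in the same groups. At 24 h 6 of the 9 were higher and 0 lower with ER-MyoD RRR than with ER-MyoD wt, among them Dcn (1.26 ± 0.13, adjusted p 4.69e-07) and Postn (0.94 ± 0.12, 2.83e-05), and against the empty retrovirus 5 were lower and 1 higher. Of all genes, 2.69% lay higher and 1.45% lower against ER-MyoD wt, and 9.35% lower and 7.61% higher against the empty retrovirus. Their 24 h sums thus put the constructs in the same order as the group means of most genes described here. From 6 h to 24 h in ER-MyoD RRR cells 6 of the 9 markers rose and 1 fell, against 2 and 1 of the 8 genes. Of all genes, 10.1% rose and 11.9% fell in that step. In ER-MyoD wt cells at 24 h relative to 0 h, 3 markers rose and 3 fell, against 1 and 5 genes. The shares over all genes were 13.7% and 15.2%. At 6 h the marker sums of the constructs overlapped. A list of 7 skeletal muscle markers moved with construct and time. Their summed signal at 24 h was 31300 to 35200 with ER-MyoD RRR, 44860 to 53270 with ER-MyoD wt and 94.28 to 163.5 with the empty retrovirus, and at 6 h it was 1638 to 2031, 5604 to 6021 and 135.2 to 158.9 in the same groups. The part of these shifts in the results below was not tested. Fewer cells of a type and less RNA per cell cannot be told apart in these bulk samples.

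The first comparison set the mutant ER-MyoD RRR beside ER-MyoD wt, which asks how loss of the acetylated lysines bears on these genes. Medag, Nfib, Islr, Pdgfrb and Prrx1 were higher with ER-MyoD RRR at 24 h, by 1.46- to 3.94-fold in mean signal, and the estimates for Pdgfra, Cd34 and Thy1 were above 0 without passing the test. These are log2 differences of log2(signal + 16) after quantile normalization, tested with limma and Benjamini-Hochberg adjustment over all 45037 probe sets at an adjusted p under 0.05. Each ± beside such a difference is its standard error, with 3 arrays a group. At 24 h 5 of the 8 genes were higher and 0 were lower, beside 2.69% of all genes higher and 1.45% lower. Among genes with a mean signal of at least 50, which all 8 had, 4.26% were higher. Of the calls over all genes, 65.0% were higher ones, against 39.6% with median centring of the arrays. The members' own count fell to 2 with median centring and with a fit on only the groups compared, and ranged from 3 to 6 when 1 array was left out. The median over the 8 genes was 1.09, beside 0.0029 over all genes. At 12 h only Prrx1 and Medag passed, both higher, where 0.517% of all genes were higher and 0.649% lower. At 6 h 0 of the 8 passed with limma, where 1.01% of all genes lay higher and 1.52% lay lower, and higher calls were 39.9% of the calls, against 19.2% with median centring. The 6 h estimates were positive for all 8 genes and the 12 h estimates for 7 of them, Thy1 being the exception. These differences share the ER-MyoD wt arrays with the comparison behind the choice of genes, so their direction is not independent of that choice.

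**Figure D1:**
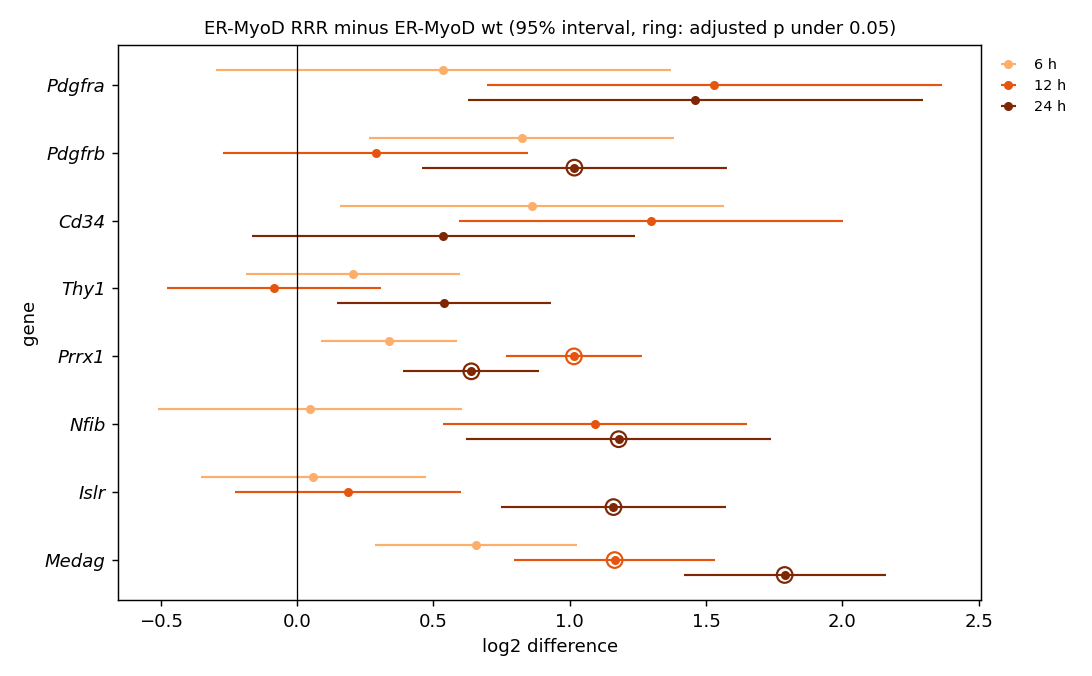
Log2 difference of ER-MyoD RRR minus ER-MyoD wt (horizontal axis) for each gene at 6, 12 and 24 h, with its 95% interval from the linear model, 3 arrays a group. A ring marks an adjusted p under 0.05; the 24 h points of Pdgfrb, Prrx1, Nfib, Islr and Medag and the 12 h points of Prrx1 and Medag carry one.

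Against the empty retrovirus, ER-MyoD RRR cells were lower in Islr, Pdgfra, Nfib, Cd34, Medag and Prrx1 at 24 h by their brightest probe sets. Thus 6 of the 8 genes were lower and 0 higher, beside 9.35% of all genes lower and 7.61% higher. Of the calls over all genes at 24 h, 44.9% were higher ones, against 34.7% with median centring. The members' median was -1.40, beside 0.0253 over all genes. At 6 h Pdgfrb and Thy1 were higher and Cd34, Prrx1 and Nfib lower, where 6.35% of all genes lay higher and 5.88% lay lower, with higher calls at 51.9% of calls and 67.6% with median centring. At 12 h only Cd34 and Prrx1 passed, both lower, where 4.39% of all genes lay higher and 4.0% lower. Higher calls were 52.4% of the calls at 12 h, against 76.4% with median centring, which moved the median of all genes from -0.0145 to 0.0968. These comparisons share the empty retrovirus arrays with the one behind the choice of genes.

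**Figure D2:**
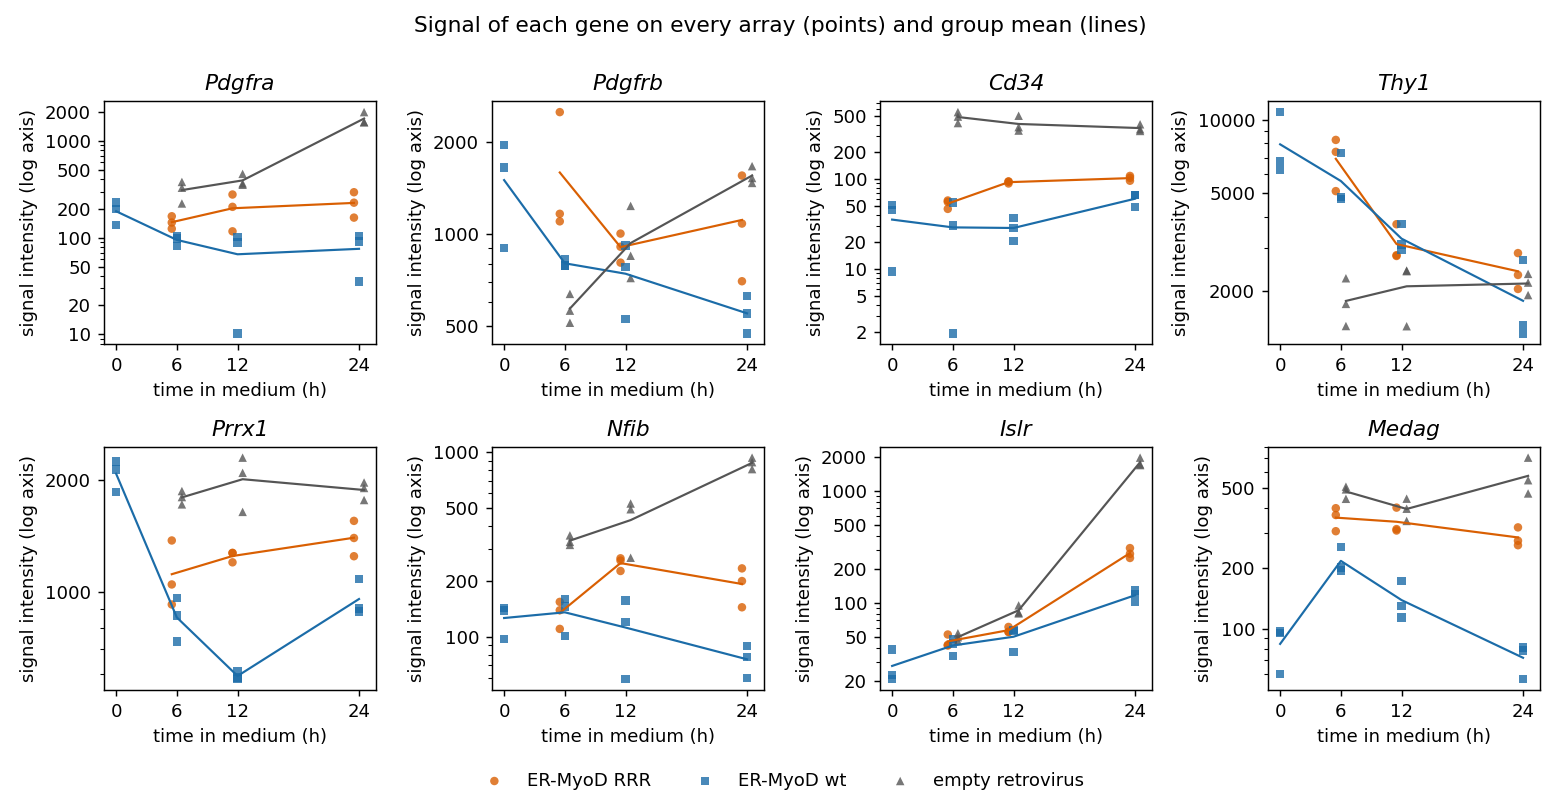
Deposited signal intensity (vertical, log axis) of the brightest probe set of each gene on every array (points, 3 a group, shifted sideways by construct) against hours in medium, with lines through the group means. At 24 h the empty retrovirus arrays lie above all others for Pdgfra, Cd34, Prrx1, Nfib, Islr and Medag, while Thy1 starts high and falls with time in the ER-MyoD wt arrays.

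Pdgfra, the receptor that binds the A, B and C chains of PDGF, separated the constructs by 24 h. With ER-MyoD RRR its signal was 166.5, 143.4 and 123.8 at 6 h, 116.3, 279.4 and 208.3 at 12 h, and 295.1, 161.2 and 230.0 at 24 h. With ER-MyoD wt it was 230.1, 197.9 and 134.9 at 0 h, 104.2, 98.3 and 81.8 at 6 h, 89.6, 10.2 and 102.1 at 12 h, and 91.3, 103.4 and 35.2 at 24 h. With the empty retrovirus it was 377.2, 328.4 and 225.8 at 6 h, 364.1, 457.0 and 352.6 at 12 h, and 1569.0, 1989.9 and 1562.9 at 24 h. All ER-MyoD RRR arrays lay above the ER-MyoD wt arrays of the same time and below the empty retrovirus arrays of the same time, and 2 single ER-MyoD wt arrays, 1 at 12 h and 1 at 24 h, were far below their replicates. The difference between ER-MyoD RRR and ER-MyoD wt at 24 h was 1.46 ± 0.41 (95% interval 0.63 to 2.30, adjusted p 0.0501), a ratio of mean signals of 2.98, and it did not pass the test. It passed under some alternatives, with adjusted p down to 0.0279. At 12 h it was 1.53 ± 0.41 (adjusted p 0.0891, under the threshold in 5 of 15 alternatives) and at 6 h 0.54 ± 0.41 (0.647). Against the empty retrovirus, ER-MyoD RRR was 7.46-fold lower at 24 h (-3.03 ± 0.41, adjusted p 3.63e-06).

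The steps to 24 h within empty retrovirus and ER-MyoD wt cells, for every gene below, use 24 h arrays that also entered the choice of genes. Their direction and p-values are therefore not independent of that choice for Pdgfra, Nfib and Islr. The 6 h arrays of ER-MyoD wt entered the choice of Cd34, so the same holds for its step from 0 h to 6 h. Within the empty retrovirus cells Pdgfra rose 5.50-fold at 24 h relative to 6 h (2.60 ± 0.41, adjusted p 4.05e-05). In ER-MyoD RRR cells the same step was 0.42 ± 0.41 (adjusted p 0.615), and the 2 steps differed by -2.18 ± 0.58 (adjusted p 0.0198). The call on this difference was lost with a pseudocount of 1 (0.0928). It was also lost without ER-MyoD RRR 24 h replicate 2 (0.0668), empty retrovirus 24 h replicate 2 (0.0517) or empty retrovirus 6 h replicate 3 (0.0602). ER-MyoD wt cells had less Pdgfra at 24 h than at 0 h (-1.35 ± 0.41, adjusted p 0.0164), which without ER-MyoD wt 24 h replicate 3 became -0.88 with an adjusted p of 0.169. That call was also lost without ER-MyoD wt 0 h replicate 1 (0.0738) or replicate 2 (0.0537). The 2 dimmer probe sets of Pdgfra, with mean signals of 90.2 and 82.4, followed the brightest at r = 0.929 and 0.822 over the 10 group means but with smaller differences. For 1421916_at, ER-MyoD RRR minus the empty retrovirus was -0.98 at 24 h (adjusted p 0.0437), and for 1438946_at it was -0.72 (0.210).

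Pdgfrb, which binds the B and D chains and is a marker of pericytes and perivascular fibroblasts, did not follow Pdgfra at 6 h. Its signal with ER-MyoD RRR was 1165.8, 2502.9 and 1101.5 at 6 h, 910.3, 1004.7 and 807.8 at 12 h, and 1083.4, 1553.9 and 702.3 at 24 h. Cells with ER-MyoD wt gave 1955.1, 900.9 and 1648.8 at 0 h, 829.1, 790.9 and 790.8 at 6 h, 918.6, 529.3 and 781.6 at 12 h, and 551.9, 628.9 and 474.8 at 24 h. In empty retrovirus cells it was 563.0, 514.1 and 638.6 at 6 h, 850.5, 1237.2 and 719.4 at 12 h, and 1470.0, 1667.6 and 1525.4 at 24 h. The empty retrovirus arrays were thus the lowest at 6 h, and at 24 h they lay above all but 1 ER-MyoD RRR array. At 6 h ER-MyoD RRR was 2.78-fold higher than the empty retrovirus (1.23 ± 0.27, adjusted p 0.00325). Without ER-MyoD RRR 6 h replicate 2 the difference was 0.87 (adjusted p 0.0402). At 24 h ER-MyoD RRR exceeded ER-MyoD wt, being 2.02-fold higher (1.02 ± 0.27, adjusted p 0.0395).

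That 24 h call was lost without any 1 of ER-MyoD wt replicates 1, 2 and 3 or ER-MyoD RRR replicates 1 and 2 (adjusted p 0.0694 to 0.254) and with median centring (0.80, adjusted p 0.248). The dimmer probe set of Pdgfrb, 1417148_at, gave 1.15 ± 0.24 (adjusted p 0.00529) at 24 h and 1.02 ± 0.24 (0.0368) at 12 h, where the brighter one gave 0.29 ± 0.27 (0.913). In empty retrovirus cells Pdgfrb rose 2.72-fold at 24 h relative to 6 h (1.55 ± 0.27, adjusted p 0.000208), against -0.27 ± 0.27 (0.632) in ER-MyoD RRR cells. These steps differed by -1.82 ± 0.39 (adjusted p 0.00311). For 1417148_at the ER-MyoD RRR step was a rise (0.80 ± 0.24, adjusted p 0.0203), so the 2 probe sets disagreed there. In ER-MyoD wt cells the 24 h level was below the 0 h level (-1.23 ± 0.27, adjusted p 0.00105).

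The ligands of these receptors and the proteins that carry the signal inside the cell were looked at from lists. Of the 4 PDGF ligand genes, 0 passed in ER-MyoD RRR minus ER-MyoD wt at 24 h, where Pdgfa gave -0.33 ± 0.21, Pdgfb -0.03 ± 0.27, Pdgfc 0.29 ± 0.17 and Pdgfd -0.26 ± 0.52. At 6 h Pdgfc was higher with ER-MyoD RRR (0.79 ± 0.17, adjusted p 0.0138). Pdgfa was higher with ER-MyoD RRR than with the empty retrovirus at 24 h (0.89 ± 0.21, adjusted p 0.00445), the opposite direction to Pdgfra. Of 12 genes that act downstream of PDGF receptors, 1 was lower and 0 were higher in ER-MyoD RRR at 24 h relative to ER-MyoD wt. This was Grb2, an adaptor that links receptors to Ras (-0.76 ± 0.11, adjusted p 0.000153). Of all genes, 1.45% lay lower and 2.69% lay higher in that comparison. The median of the 12 genes was 0.0242. From 6 h to 24 h in ER-MyoD RRR cells 5 of the 12 rose and 0 fell, where 10.1% of all genes rose and 11.9% fell, and they included the phosphoinositide 3-kinase subunits Pik3r1 (1.45 ± 0.16, adjusted p 8.12e-08) and Pik3ca (1.10 ± 0.22) and the Ras regulator Rasa1 (0.82 ± 0.17).

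Cd34, a sialomucin of progenitor and endothelial cells, differed from the empty retrovirus from the earliest time measured. In ER-MyoD RRR cells the signal was 58.2, 56.1 and 47.0 at 6 h, 89.9, 94.3 and 94.7 at 12 h, and 96.5, 103.9 and 109.1 at 24 h. The ER-MyoD wt arrays gave 45.9, 9.4 and 51.8 at 0 h, 1.9, 55.2 and 30.6 at 6 h, 20.6, 28.8 and 37.0 at 12 h, and 49.2, 66.9 and 66.6 at 24 h. The empty retrovirus arrays gave 558.4, 421.9 and 497.7 at 6 h, 348.2, 379.8 and 508.8 at 12 h, and 360.1, 344.8 and 408.8 at 24 h. Every array with either form of ER-MyoD, the 0 h arrays included, lay below every empty retrovirus array. ER-MyoD RRR was 9.17-fold lower than the empty retrovirus at 6 h (-2.77 ± 0.34, adjusted p 1.81e-06), 4.43-fold lower at 12 h (-1.90 ± 0.34, 0.000444) and 3.60-fold lower at 24 h (-1.80 ± 0.34, 0.000459). The 6 h mean with ER-MyoD RRR, 53.7, lay within the range of array medians, 37.96 to 64.14, so the 6 h fold is imprecise. With a pseudocount of 64 the 6 h difference was -2.18 (adjusted p 2.72e-09).

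Since the ER-MyoD wt arrays at 0 h were already low in Cd34, at 35.7 ± 22.9 (SD, n = 3), the step from 0 h to 6 h in these cells was -0.33 ± 0.34 (95% interval -1.03 to 0.37, adjusted p 0.674). The 7 muscle markers summed to 970 to 1094 in the 0 h arrays, where Tnnt2, cardiac troponin T, had a mean of 859.9, against 29.07 in the empty retrovirus arrays at 6 h. Between ER-MyoD RRR and ER-MyoD wt, Cd34 differed by 0.86 ± 0.34 at 6 h (adjusted p 0.246), 1.30 ± 0.34 at 12 h (0.0861, under the threshold in 3 of 15 alternatives) and 0.54 ± 0.34 at 24 h (0.582). The arrays of the 2 constructs did not overlap at 12 h and 24 h, but no time passed the test. Summed over 7 endothelial markers the signal was 203.1 to 285.7 with ER-MyoD RRR and 191.1 to 232.9 with the empty retrovirus at 6 h, and 264.4 to 386.2 and 143.8 to 253.1 in these groups at 24 h, where 2 of the 7 were higher with ER-MyoD RRR. Of all genes, 7.61% lay higher there. Over 5 blood cell markers the sums were 332.7 to 364.0 with ER-MyoD RRR and 193.0 to 284.1 with the empty retrovirus at 6 h, and 394.1 to 458.9 and 211.7 to 276.0 at 24 h. In this comparison 1 of the 5 was higher and 0 lower at 6 h, and 2 were higher and 0 lower at 24 h. Higher shares over all genes were 6.35% and 7.61%. Itgam, from the blood list, rose from 6 h to 24 h in ER-MyoD RRR cells (1.26 ± 0.37, adjusted p 0.0195). The part of these markers in the Cd34 result was not tested. Pecam1, which defines endothelium, had group means of 3.957 to 24.25, and Ptprc, which defines blood cells, 7.941 to 27.84, all below the lowest array median of 37.96. These 2 genes do not stand for the other markers of their lists.

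Thy1, a glycolipid-anchored surface protein of fibroblasts and neurons, was high with ER-MyoD at early times and then fell. The ER-MyoD RRR arrays gave a signal of 5111.2, 8272.3 and 7394.4 at 6 h, 2777.4, 3743.7 and 2798.0 at 12 h, and 2323.9, 2036.6 and 2853.7 at 24 h. With ER-MyoD wt it was 6260.9, 10744.1 and 6800.6 at 0 h, 4829.6, 7296.7 and 4734.5 at 6 h, 2956.2, 3090.7 and 3757.1 at 12 h, and 1341.8, 2673.3 and 1450.7 at 24 h. With the empty retrovirus it was 1437.2, 1770.1 and 2252.3 at 6 h, 1434.8, 2407.8 and 2422.7 at 12 h, and 1923.0, 2162.5 and 2347.0 at 24 h. The ER-MyoD RRR and empty retrovirus arrays were fully apart at 6 h and mixed at 24 h. ER-MyoD RRR was 3.81-fold higher than the empty retrovirus at 6 h (1.71 ± 0.19, adjusted p 3.43e-07), and the 24 h difference was 0.10 ± 0.19 (95% interval -0.29 to 0.50, adjusted p 0.827). From 6 h to 24 h Thy1 fell 2.88-fold in ER-MyoD RRR cells (-1.30 ± 0.19, adjusted p 9.43e-06), and the step in empty retrovirus cells was 0.31 ± 0.19 (0.445). The steps differed by -1.61 ± 0.27 (adjusted p 0.000265). In ER-MyoD wt cells Thy1 was 4.36-fold lower at 24 h than at 0 h (-1.96 ± 0.19, adjusted p 4.13e-09). ER-MyoD RRR minus ER-MyoD wt was 0.20 ± 0.19 at 6 h, -0.08 ± 0.19 at 12 h and 0.54 ± 0.19 at 24 h (adjusted p 0.733, 0.983 and 0.170).

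Among 17 other surface proteins of mesenchymal cells that were measured, 3 were higher and 0 lower with ER-MyoD RRR than with ER-MyoD wt at 24 h, with a list median of 0.14. They were Vcam1, an adhesion receptor (1.34 ± 0.12, adjusted p 1.39e-07), the podoplanin gene Pdpn (1.11 ± 0.20, 0.00123) and Fap, fibroblast activation protein (0.80 ± 0.20, 0.0237). Of all genes, 2.69% lay higher and 1.45% lay lower in that comparison. From 6 h to 24 h in ER-MyoD RRR cells 1 of the 17 rose and 5 fell, beside 10.1% and 11.9% of all genes. Fap rose by 2.14 ± 0.20 (adjusted p 3.65e-09), while Ly6e (-1.52 ± 0.15), Vcam1 (-0.83 ± 0.12) and Cd44 (-0.74 ± 0.11) were among those that fell.

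Prrx1, a homeobox factor of limb and craniofacial mesenchyme, changed early in ER-MyoD wt cells. Its signal with ER-MyoD RRR was 1046.0, 1373.5 and 924.1 at 6 h, 1199.7, 1270.7 and 1272.0 at 12 h, and 1394.8, 1550.7 and 1245.8 at 24 h. Cells with ER-MyoD wt gave 2242.4, 2133.6 and 1854.8 at 0 h, 961.0, 734.2 and 863.3 at 6 h, 582.9, 588.3 and 609.4 at 12 h, and 902.3, 1081.5 and 883.6 at 24 h. In empty retrovirus cells it was 1797.2, 1865.4 and 1717.7 at 6 h, 1639.6, 2293.9 and 2088.3 at 12 h, and 1901.2, 1967.0 and 1764.5 at 24 h. By this probe set the 0 h arrays of ER-MyoD wt lay with the empty retrovirus arrays, and at 12 h the constructs fell into 3 ranges without overlap. This was not so for 1432129_a_at. Its 0 h arrays (607.3 to 901.3) lay above all empty retrovirus arrays (469.3 at most), and its ER-MyoD RRR and empty retrovirus arrays overlapped at 12 h. In ER-MyoD wt cells Prrx1 was lower at 6 h than at 0 h (-1.16 ± 0.12, adjusted p 8.54e-08), where 8.63% of all genes rose and 6.95% fell. At 24 h it was still below the 0 h level (-0.94 ± 0.12, adjusted p 6.22e-07). ER-MyoD RRR was 2.10-fold higher than ER-MyoD wt at 12 h (1.02 ± 0.12, adjusted p 1.5e-05) and 1.46-fold higher at 24 h (0.64 ± 0.12, 0.0024). With median centring the 24 h difference was 0.41 (adjusted p 0.402). Against the empty retrovirus it was -0.87 ± 0.12 at 6 h (adjusted p 1.17e-05), -0.81 ± 0.12 at 12 h (4.06e-05) and -0.48 ± 0.12 at 24 h (0.00829), and none of the 3 passed with median centring (-0.54, -0.48 and -0.51, adjusted p 0.097 to 0.197). The 24 h call was also lost without ER-MyoD RRR 24 h replicate 3 (adjusted p 0.0683) or empty retrovirus 24 h replicate 1 (0.0610).

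Nfib, a nuclear factor I protein that regulates differentiation in lung, brain and other tissues, rose in the empty retrovirus cells. In ER-MyoD RRR cells the signal was 110.4, 154.6 and 139.3 at 6 h, 227.2, 258.8 and 266.1 at 12 h, and 144.6, 200.4 and 234.7 at 24 h. The ER-MyoD wt arrays gave 97.6, 138.5 and 143.2 at 0 h, 160.3, 101.2 and 145.9 at 6 h, 59.2, 120.1 and 157.5 at 12 h, and 77.8, 89.1 and 60.0 at 24 h. The empty retrovirus arrays gave 314.5, 326.5 and 354.0 at 6 h, 268.0, 526.8 and 490.4 at 12 h, and 932.8, 881.6 and 808.7 at 24 h. In deposited signal the empty retrovirus arrays were above all ER-MyoD arrays at every time, if barely so at 12 h, and those of ER-MyoD RRR were above those of ER-MyoD wt at 12 h and 24 h. At 24 h ER-MyoD RRR was 2.56-fold higher than ER-MyoD wt (1.18 ± 0.27, adjusted p 0.0131) and 4.53-fold lower than the empty retrovirus (-2.23 ± 0.27, adjusted p 8.03e-07). At 6 h it was lower than the empty retrovirus by -1.06 ± 0.27 (adjusted p 0.0116), a call lost without ER-MyoD RRR 6 h replicate 1 (0.0651). The 24 h difference from ER-MyoD wt was not called with median centring (adjusted p 0.0818) and without ER-MyoD wt 24 h replicate 3 (0.94, adjusted p 0.0977) or ER-MyoD RRR 24 h replicate 2 (0.0517) or replicate 3 (0.0877). At 12 h the difference from ER-MyoD wt was 1.09 ± 0.27 (adjusted p 0.0603), which passed under 6 of 15 alternatives (adjusted p 0.0156 to 0.0325), and at 6 h it was 0.05 ± 0.27 (0.972).

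From 6 h to 24 h Nfib rose 2.64-fold in empty retrovirus cells (1.47 ± 0.27, adjusted p 0.000362), and the step in ER-MyoD RRR cells was 0.30 ± 0.27 (0.582). The difference between these steps was -1.17 ± 0.38 (adjusted p 0.0781). Of the 3 other genes of the family, Nfix was higher with ER-MyoD RRR than with ER-MyoD wt at 24 h (0.77 ± 0.10, adjusted p 4.17e-05), whereas Nfia gave 0.03 ± 0.28 (0.986) and Nfic -0.03 ± 0.16 (0.977). From 6 h to 24 h in ER-MyoD RRR cells Nfix fell by 0.36 ± 0.10 (adjusted p 0.0159) and Nfic by 0.61 ± 0.16 (0.00699). Among 26 other transcription factors of mesenchyme, 1 was higher and 0 were lower in ER-MyoD RRR than in ER-MyoD wt at 24 h, the basic helix-loop-helix factor Twist2 (1.42 ± 0.15, adjusted p 8.8e-07). Of all genes, 2.69% lay higher and 1.45% lay lower in that comparison. In the step from 6 h to 24 h in ER-MyoD RRR cells 5 of the 26 rose, with Zeb1 (1.59 ± 0.12), Tcf4 (1.62 ± 0.26) and Foxc1 (0.77 ± 0.16) among them, and 3 fell, namely Twist2 (-1.31 ± 0.15), Prrx2 (-1.39 ± 0.24) and Foxf2 (-0.71 ± 0.21), where 10.1% of all genes rose and 11.9% fell, a share of falls close to that of the list. The list's medians were 0.20 and -0.07 in these comparisons.

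Islr, which encodes a secreted protein with leucine-rich repeats and an immunoglobulin domain, had the widest range of the 8 genes over time. The ER-MyoD RRR arrays gave a signal of 42.3, 41.7 and 52.3 at 6 h, 55.5, 55.0 and 61.1 at 12 h, and 275.2, 252.6 and 309.3 at 24 h. With ER-MyoD wt it was 38.5, 21.0 and 22.8 at 0 h, 47.8, 33.8 and 43.6 at 6 h, 57.4, 36.5 and 56.1 at 12 h, and 129.9, 101.9 and 120.2 at 24 h. With the empty retrovirus it was 49.6, 45.7 and 53.7 at 6 h, 82.4, 80.8 and 95.2 at 12 h, and 1705.2, 1987.5 and 1733.4 at 24 h. The 3 constructs overlapped at 6 h and were fully apart at 24 h, with ER-MyoD RRR in the middle. At 24 h ER-MyoD RRR was 2.38-fold higher than ER-MyoD wt (1.16 ± 0.20, adjusted p 0.000914) and 6.48-fold lower than the empty retrovirus (-2.78 ± 0.20, adjusted p 5.62e-11). At 6 h these differences were 0.06 ± 0.20 (95% interval -0.35 to 0.47, adjusted p 0.950) and 0.06 ± 0.20 (0.925).

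Islr rose in every construct over time. The step from 6 h to 24 h was 2.17 ± 0.20 in ER-MyoD RRR cells (adjusted p 3.88e-09, 1.59 to 2.47 over the alternatives) and 5.01 ± 0.20 in empty retrovirus cells (5.86e-16, 4.22 to 5.40). Mean signals at the earlier time, 45.4 and 49.6, were close to the medians of whole arrays, so no fold is given. The step in ER-MyoD RRR cells shares no array with the comparison behind the choice of genes. In ER-MyoD wt cells Islr was higher at 24 h than at 0 h by 1.49 ± 0.20 (adjusted p 1.41e-06, 0.91 to 1.89 over the alternatives), from a 0 h mean of 27.4 that lay below those medians. The steps of ER-MyoD RRR and empty retrovirus cells differed by -2.84 ± 0.29 (adjusted p 1.35e-07), and those of ER-MyoD RRR and ER-MyoD wt by 1.10 ± 0.29 (0.0648).

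Medag, named for a role in adipocyte formation, separated ER-MyoD RRR from ER-MyoD wt the most by 24 h. Its signal with ER-MyoD RRR was 396.9, 305.4 and 367.2 at 6 h, 399.5, 312.8 and 307.8 at 12 h, and 318.9, 274.0 and 260.3 at 24 h. Cells with ER-MyoD wt gave 97.6, 60.1 and 95.9 at 0 h, 202.4, 255.5 and 195.3 at 6 h, 130.4, 173.3 and 114.0 at 12 h, and 78.6, 56.7 and 81.2 at 24 h. In empty retrovirus cells it was 491.8, 507.2 and 441.7 at 6 h, 442.4, 343.2 and 394.6 at 12 h, and 706.1, 546.0 and 469.5 at 24 h. Every ER-MyoD RRR array was above every ER-MyoD wt array, and at 12 h the ER-MyoD RRR and empty retrovirus arrays were mixed. ER-MyoD RRR was higher than ER-MyoD wt by 0.66 ± 0.18 at 6 h (adjusted p 0.058), which did not pass here but did under 6 of 15 alternatives, by 1.17 ± 0.18 at 12 h (2.44-fold, adjusted p 0.000544) and by 1.79 ± 0.18 at 24 h (3.94-fold, adjusted p 4.69e-07). The 12 h and 24 h calls held under all 15 alternatives run for each.

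In ER-MyoD wt cells Medag rose at 6 h relative to 0 h (1.14 ± 0.18, adjusted p 4.83e-05), and its 24 h level differed from that at 0 h by -0.33 ± 0.18 (0.247). The step from 6 h to 24 h differed between ER-MyoD RRR and ER-MyoD wt by 1.13 ± 0.25 (adjusted p 0.0256), a call lost under 9 of 21 alternatives (adjusted p up to 0.135), among them leaving out ER-MyoD RRR 24 h replicate 1, ER-MyoD RRR 6 h replicate 3, ER-MyoD wt 24 h replicate 2 or 3, or ER-MyoD wt 6 h replicate 2. Against the empty retrovirus, ER-MyoD RRR was 2.02-fold lower at 24 h (-1.0 ± 0.18, adjusted p 0.000241), and the differences at 6 h (-0.40 ± 0.18, 0.194) and 12 h (-0.22 ± 0.18, 0.629) did not pass. The dimmer probe set of Medag, 1426937_at, gave 1.37 ± 0.25 (adjusted p 0.00359) at 12 h and 1.43 ± 0.25 (0.000812) at 24 h for ER-MyoD RRR minus ER-MyoD wt. Of 10 adipogenic genes measured, 2 were higher and 0 lower in ER-MyoD RRR than in ER-MyoD wt at 24 h, beside 2.69% and 1.45% of all genes. These were Lpl, lipoprotein lipase (0.99 ± 0.17, adjusted p 0.000624), and Cebpb, an early factor of adipogenesis (0.88 ± 0.16, 0.00173), and the list median was -0.02. From 6 h to 24 h in ER-MyoD RRR cells Lpl rose (1.27 ± 0.17) and Cebpb fell (-0.70 ± 0.16).

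Within each construct, the steps in time ran differently. In ER-MyoD RRR cells 2 of the 8 genes rose (Islr and Prrx1) and 1 fell (Thy1) from 6 h to 24 h, beside 10.1% and 11.9% of all genes. Prrx1 gave 0.52 ± 0.12 (adjusted p 0.00272), which was 0.10 (0.822) with median centring and 0.34 (0.110) with the signals as deposited. These scalings moved the median of all genes from -0.0176 to -0.1335 and 0.1049, and the share of higher calls from 46.0% to 29.4% with median centring. In empty retrovirus cells 4 rose (Pdgfra, Pdgfrb, Nfib and Islr) and 0 fell, where 7.27% of all genes rose and 6.69% fell, but these arrays helped to choose Pdgfra, Nfib and Islr. The members' medians were 0.36 in ER-MyoD RRR cells and 0.89 in empty retrovirus cells. In ER-MyoD wt cells 1 rose (Islr) and 5 fell (Thy1, Pdgfra, Pdgfrb, Prrx1 and Nfib) at 24 h relative to 0 h, where 13.7% of all genes rose and 15.2% fell, and the same holds for these ER-MyoD wt arrays. The fall of Nfib, 0.80 ± 0.27 on the log2 scale (adjusted p 0.0341), was lost under 9 alternatives, among them leaving out ER-MyoD wt 0 h replicate 2 (0.110) or 3 (0.121) or ER-MyoD wt 24 h replicate 1 (0.0587) or 3 (0.217). The 6 h to 24 h step was smaller with ER-MyoD RRR than with the empty retrovirus for 4 genes (Islr, Pdgfra, Pdgfrb and Thy1) and larger for 0, beside 5.0% and 3.81% of all genes, again with the 24 h empty retrovirus arrays in the difference. For that difference the higher share of calls was 43.2%, against 24.0% with median centring, which moved the median of all genes from -0.0193 to -0.1524. Against ER-MyoD wt the step was larger for 1 gene (Medag) and smaller for 0, beside 0.901% and 0.429% of all genes.

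**Figure D3:**
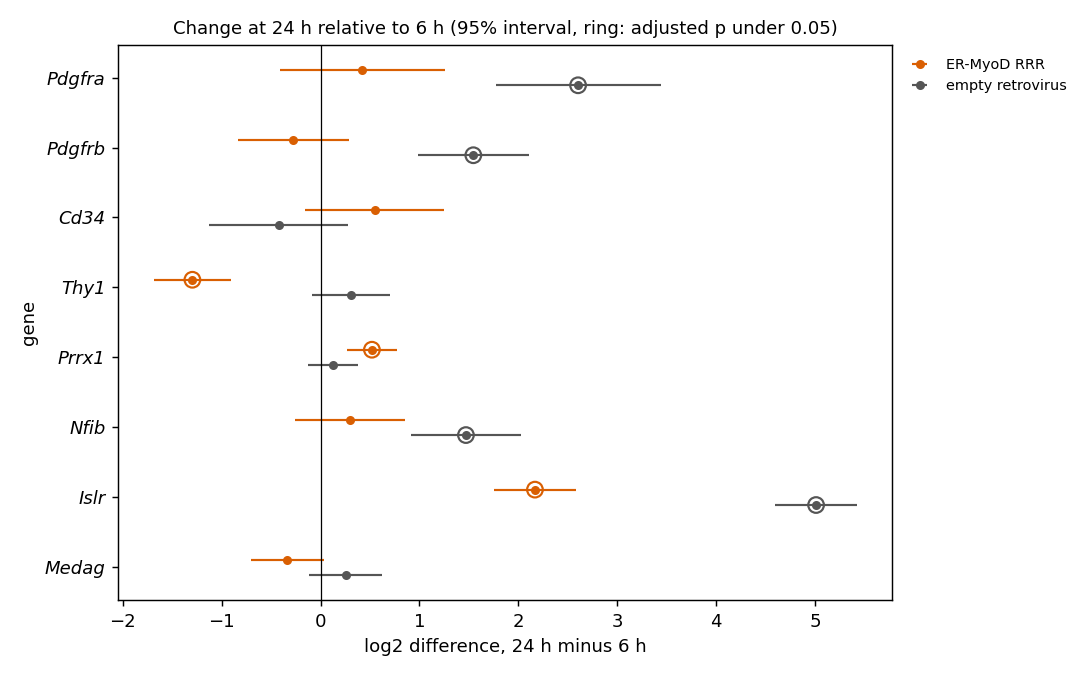
Log2 difference of 24 h minus 6 h (horizontal axis) for each gene within ER-MyoD RRR cells and within empty retrovirus cells, with 95% intervals from the linear model, 3 arrays a group, and a ring where the adjusted p is under 0.05. In empty retrovirus cells all genes but Cd34 lie to the right of 0, with a ring for Pdgfra, Pdgfrb, Nfib and Islr, and Islr alone lies above 2 in ER-MyoD RRR cells.

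The comparison of ER-MyoD wt with the empty retrovirus, from which the genes had been proposed, is given as values only. At 24 h the differences were -4.49 for Pdgfra, -3.94 for Islr, -3.41 for Nfib, -2.79 for Medag, -2.33 for Cd34, -1.60 for Pdgfrb, -1.12 for Prrx1 and -0.43 for Thy1. At 6 h Cd34 was the lowest at -3.63, Islr stood at 0.00, and Pdgfrb (0.41) and Thy1 (1.51) were above 0. The arrays did not overlap, and were lower with ER-MyoD wt, for 5 genes at 6 h, 5 at 12 h and 7 at 24 h, where 15.5%, 15.2% and 18.9% of all genes showed this. Arrays that were higher with ER-MyoD wt and did not overlap were found for 2 genes at 6 h, 1 at 12 h and 0 at 24 h, beside 14.0%, 12.6% and 17.8% of all genes. The differences of ER-MyoD RRR from the same empty retrovirus arrays at 24 h, given side by side, were -3.03 for Pdgfra, -2.78 for Islr, -2.23 for Nfib, -1.0 for Medag, -1.80 for Cd34, and the 2 comparisons share those arrays.

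The order of the 10 groups differed from gene to gene. Pdgfra, Nfib, Islr, Medag and Pdgfrb had their highest mean in the empty retrovirus at 24 h, Cd34 in the empty retrovirus at 6 h, Prrx1 in the empty retrovirus at 12 h, and Thy1 in ER-MyoD wt at 0 h. The lowest mean was in ER-MyoD wt at 24 h for Pdgfrb, Thy1, Nfib and Medag, at 12 h for Pdgfra and Prrx1, at 6 h for Cd34 and at 0 h for Islr. There were 9 steps between neighbours in this order. The arrays were apart without overlap in 3 for Islr, 2 each for Pdgfra, Cd34, Prrx1, Nfib and Medag, 1 for Thy1 and 0 for Pdgfrb. Neighbours in a sorted order are the closest in mean, so overlap between them is no test that groups do not differ. For Islr the 3 steps without overlap lay between the empty retrovirus at 24 h, ER-MyoD RRR at 24 h, ER-MyoD wt at 24 h and the empty retrovirus at 12 h.

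Over the 10 group means the genes most alike were Nfib and Pdgfra (r = 0.952), then Medag and Nfib (0.831) and Cd34 and Nfib (0.827). Thy1 ran against all others but Pdgfrb (0.443), down to -0.655 with Cd34. These correlations describe group means that share arrays and normalization. Among 8443 other genes with a mean signal of at least 100, the 2 with the highest correlation to each gene over the 10 group means were Vwa5a (0.980) and Rnf24 (0.971) for Pdgfra, Slc38a10 (0.959) and S100a13 (0.952) for Pdgfrb, and Ly96 (0.977) and Efcab7 (0.972) for Cd34. For Thy1 they were Ddah1 (0.978) and Actg1 (0.972), for Prrx1 Ccl2 (0.974) and Traf3ip2 (0.957), and for Nfib Ttc8 (0.975) and Tmx4 (0.974). Islr was followed most closely by Col5a3 (0.978), a fibrillar collagen chain, and Copa (0.976), and Medag by Dnajc10 (0.945) and Asb3 (0.938).

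The other probe sets of the 5 genes that had more than 1 showed how far the pattern rests on a single probe set. Of all 23 probe sets, 10 were higher in ER-MyoD RRR than in ER-MyoD wt at 24 h and 0 lower, and 14 were lower and 0 higher than in the empty retrovirus. Of the 6 other Nfib probe sets, 5 followed the brightest at r = 0.852 to 0.981, and 1416293_at, with a mean signal of 43.8, did not (r = -0.077). Of those 5, 1454834_at (1.41 ± 0.23, adjusted p 0.000474) and 1434102_at (1.41 ± 0.33, 0.0143), also passed for ER-MyoD RRR minus ER-MyoD wt at 24 h, while 1438244_at gave 0.00 ± 0.26. Of the 5 other Prrx1 probe sets, 1439774_at passed in the same comparison (0.76 ± 0.17, adjusted p 0.00985). Against the empty retrovirus at 24 h, 1439774_at was also lower with ER-MyoD RRR (-0.92 ± 0.17, adjusted p 0.000313). There 1425527_at gave 0.02 ± 0.22 (0.973), 1432129_a_at 0.24 ± 0.27 (0.686) and 1425526_a_at -0.15 ± 0.43 (0.903). The lower Prrx1 level in that comparison was thus not shared by all its probe sets. The dimmest, 1458004_at, had a mean signal of 8.90 and r = 0.043 with the brightest.

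**Figure D4:**
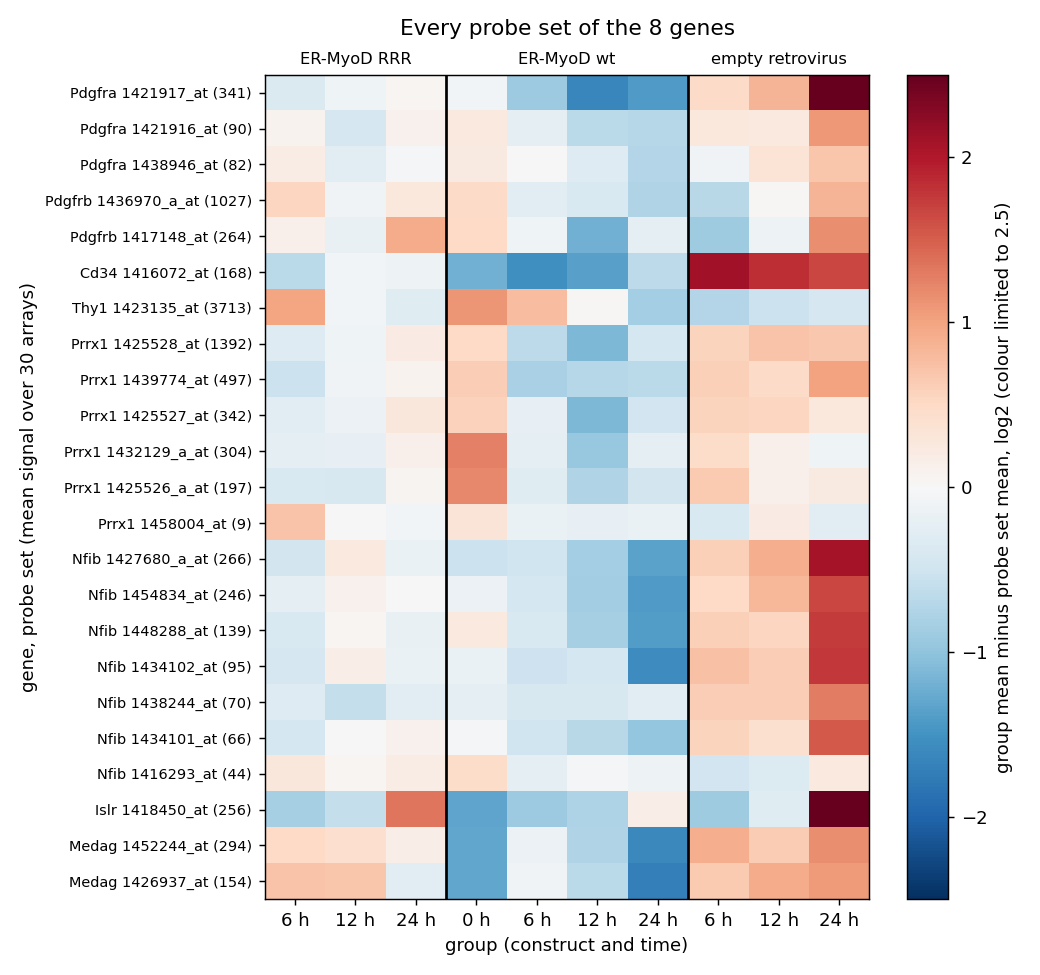
Colour map of all 23 probe sets (rows, with the mean signal over 30 arrays in brackets) over the 10 groups (columns), as the group mean of log2(signal + 16) minus the probe set's mean over the groups. Dark red at 24 h with the empty retrovirus marks the brightest Pdgfra probe set, most Nfib probe sets and Islr, whereas Cd34 is red at all 3 empty retrovirus times.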

How the data were processed

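Gene expression was measured on 30 one-colour arrays in 10 groups of 3. The authors deposited linear signal intensity values, 1 for each probe set on an array; their software is not given in the sources used here. Each array had a trimmed mean of 150, so it had been scaled, and medians lay between 37.96 and 64.14. Precision is limited by the number of arrays.

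The 64 controls among 45101 probe sets were not used. The platform annotation gave 34945 of the other 45037 a single symbol, 932 several and 9160 none here, and 34741 were found by Entrez id in the RefSeq gene list, and 0 names changed. A gene was represented by its probe set with the highest mean, which left 18193 genes. Values were quantile normalized over 45037 probe sets and tested as log2(signal + 16), with no filter on low signal. Such a difference understates the change of dim genes.

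A model with 1 mean per group over all 30 arrays (20 residual degrees of freedom) was fitted with limma 3.58.1 in R 4.3.3 (lmFit, eBayes with trend). P-values were two-sided and adjusted by Benjamini-Hochberg over all 45037 probe sets within a comparison, and calls were counted over the 18193 genes. Fold differences are ratios of mean deposited signals. The code was tested on simulated data. Files were read by data.table (version 1.17.8), and figures drawn with pandas 2.3.3 and matplotlib 3.10.9 in Python 3.11.15. The members and lists were chosen with earlier results of these data known. All members are named; of each list, at most 3 rises and 3 falls with the smallest p in ER-MyoD RRR minus ER-MyoD wt at 24 h and in ER-MyoD RRR at 24 h minus 6 h, every gene of lists of 5 or fewer, and for each member the 2 genes closest in pattern.

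Arrays with the same replicate number were checked for shared deviations from their group means. Over 135 such pairs the correlation had a median of 0.048 (range -0.316 to 0.436), beside -0.022 for pairs with unlike numbers. For 20 of the 30 arrays the closest array of another group had the same number. No label says what the numbers mark, and the main fit did not pair arrays by them. Whether they mark a shared batch was not tested. Alternatives were median centring, the signals as deposited, pseudocounts of 1 and 64, a minimum mean signal of 50, adjustment over 1 probe set per gene, a replicate block, a fit on the groups compared, and leaving out arrays.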

Additional observations from a re-analysis of the deposited data

Results flagged for a closer look

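The change from 6 h to 24 h differed between constructs by a test of the difference itself (limma, Benjamini-Hochberg adjustment over all probe sets) for 5 gene and comparison pairs. Relative to empty retrovirus cells, the step in ER-MyoD RRR cells was lower for Islr by -2.84 (adjusted p 1.35e-07), for Pdgfra by -2.18 (0.0198), for Pdgfrb by -1.82 (0.00311) and for Thy1 by -1.61 (0.000265) on the log2 scale. The 24 h arrays of the empty retrovirus and of ER-MyoD wt also entered the choice of genes, so these p-values are not independent of it, above all for Islr and Pdgfra. By the brightest probe sets, both steps were rises for Islr, and only the empty retrovirus step passed for Pdgfra and Pdgfrb. For Thy1 only the fall in ER-MyoD RRR cells passed. The dimmer Pdgfrb probe set, 1417148_at, also rose in ER-MyoD RRR cells (0.80 ± 0.24, adjusted p 0.0203). Relative to ER-MyoD wt cells, the step in ER-MyoD RRR cells was higher for Medag by 1.13 (adjusted p 0.0256). This Medag call was lost under 9 of 21 alternatives (adjusted p up to 0.135), and the Pdgfra call under 4 of 21 (up to 0.0928). The sum of 7 muscle markers rose over the same step in the ER-MyoD RRR arrays, to 31300 to 35200 at 24 h, and stayed at 94.28 to 163.5 in the empty retrovirus arrays; its part in these differences was not tested.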

How the results depend on the processing

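No result changed sign while passing the test under any alternative run. Of the members' counts under alternatives, 166 stayed within 1.5 times the main count and 26 moved. For ER-MyoD RRR minus ER-MyoD wt at 24 h (5 genes) the count was 2 with median centring, Islr and Medag, and 2 when only the groups compared were fitted. At 12 h (2 genes) it was 4 with the signals as deposited, 5 with a minimum mean signal of 50, 5 with adjustment over 1 probe set per gene and 4 without the 3 arrays that stood apart. At 6 h (0 genes) it was 1, Medag, with a pseudocount of 64, the minimum of 50, 1 probe set per gene, the replicate block or without those 3 arrays. ER-MyoD RRR minus the empty retrovirus at 12 h (2 genes) gave 1 with median centring, and ER-MyoD wt at 6 h minus 0 h (2 genes) gave 4 when only those groups were fitted. The 6 h to 24 h step of ER-MyoD RRR against ER-MyoD wt (1 gene) gave 0 with median centring, with only the groups compared and without the 3 arrays, and 2 with the minimum of 50, with 1 probe set per gene and with the replicate block. Leaving out 1 array at a time gave, for ER-MyoD RRR minus ER-MyoD wt, 0 to 1 genes at 6 h, 2 to 4 at 12 h and 3 to 6 at 24 h, and for ER-MyoD RRR minus the empty retrovirus, 4 to 5, 2 to 3 and 5 to 7. It gave 2 to 3 for ER-MyoD wt at 6 h and 4 to 6 at 24 h against 0 h, 3 in ER-MyoD RRR and 4 in empty retrovirus cells for 24 h minus 6 h, and 0 to 1 and 3 to 5 for the steps of ER-MyoD RRR against ER-MyoD wt and the empty retrovirus. The replicate block gave 1, 3 and 5 genes for ER-MyoD RRR minus ER-MyoD wt at 6, 12 and 24 h. In deviations from group means, 49 of 135 same-number pairs of arrays correlated above 0.1. For 20 of 30 arrays the closest array of another group had the same number. The cause of these shifts was not tested. Low signal limits Cd34 with ER-MyoD wt and with ER-MyoD RRR at 6 h, Islr before 24 h and the dimmer probe sets, and 3 arrays a group limit every difference.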
